A study of Homo sapiens with 16 samples.

Results

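The genes described here build and run the mitotic spindle and the kinetochore, the parts of a dividing cell that pull the copied chromosomes apart. They are the 58 genes of a fixed list of symbols that are present in a deposited table of 57820 genes: mitotic cyclins and kinases, spindle checkpoint genes, the chromosomal passenger complex, kinesin motors, centromere and kinetochore proteins, spindle assembly and cytokinesis factors, genes that release sister chromatids, and condensin with other chromosome structure genes. The list was taken by symbol and not by any measured value, although it was drawn up with earlier results of these data known. The series sequenced RNA of CUTLL1, KOPTK1 and HPB-ALL, 3 established human lines of T-cell acute lymphoblastic leukaemia, after the long non-coding RNA lnrCXCR4 had been targeted (some labels write Koptk1 and HpbALL).

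The 16 libraries form 5 experiments. With guides, CUTLL1 and KOPTK1 each had 1 library with a non-targeting guide and 2 with guides against the RNA, and HPB-ALL had 2 of each. Lentivirus brought in the CRISPR components, per the labels' protocols. With antisense oligonucleotides (ASOs), added straight to the medium at 1 uM, CUTLL1 and KOPTK1 each had 1 library with a scrambled oligonucleotide and 2 with ASOs against the RNA. HPB-ALL had no ASO libraries. All cells grew in the same serum-containing medium, and all groups are established leukaemia lines. Titles number the targeted libraries as guide or ASO 1 and 2, while descriptions number them as replicates; whether they are different reagents or repeats is not settled by the labels. No source used here gives the time after treatment, any selection of infected cells, or whether they were 1 clone or a pool. The labels do not say that libraries came from separate cultures, so each p-value rests on the spread among libraries alone, and that spread may be technical.

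In mitosis, the kinase CDK1 with cyclin B drives the cell into division, and the chromosomes are packed by the condensin complexes. Each chromosome builds a kinetochore on its centromere, kinesin motors and microtubule-binding proteins shape the spindle, and the spindle checkpoint holds division back until every kinetochore is attached. CDC20 then switches on the anaphase-promoting complex (APC/C), a ubiquitin ligase that marks securin and cyclin B for destruction so that sister chromatids part, and cytokinesis then splits the cell. Most of these genes are transcribed in G2 and mitosis. Their promoters are known for a cell cycle homology region, TTTGAA or TTTAAA, bound by the DREAM and MuvB complexes, and for CCAAT boxes bound by NF-Y. A culture with more cells in G2 and mitosis and a culture with more of these RNAs per cell cannot be told apart in bulk RNA, nor can fewer cells of a type and less RNA per cell.

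The promoters of 7 members are shown first, because members on both sides of the response carry some of the motifs of this family. CCNB2, CDC20, CDCA8, ASPM and NCAPG were called higher in the comparison of all targeted and control libraries. PLK1 and SPC24 were called lower there, by calls that some other settings lost. KIF22, lower than the controls in every line, is not shown. Its promoter held 1 CCAAT box and neither form of the cell cycle motif. The sequences are the 150 bases before the RefSeq start site on GRCh38.p14, written 5′ to 3′ in the direction of transcription. Capitals mark the cell cycle motif (TTTGAA or TTTAAA) and the CCAAT box. On the opposite strand TTTGAA is written TTCAAA, and CCAAT is written ATTGG. CCNB2 lies at chr15:59104996-59105145 (plus strand), CDC20 at chr1:43358831-43358980 (plus), CDCA8 at chr1:37692366-37692515 (plus), ASPM at chr1:197146670-197146819 (minus), NCAPG at chr4:17810829-17810978 (plus), PLK1 at chr16:23678739-23678888 (plus) and SPC24 at chr19:11155783-11155932 (minus).
CCNB2: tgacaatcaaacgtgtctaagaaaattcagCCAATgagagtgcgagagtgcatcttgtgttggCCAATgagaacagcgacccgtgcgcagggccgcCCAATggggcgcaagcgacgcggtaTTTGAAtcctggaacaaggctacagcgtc
CDC20: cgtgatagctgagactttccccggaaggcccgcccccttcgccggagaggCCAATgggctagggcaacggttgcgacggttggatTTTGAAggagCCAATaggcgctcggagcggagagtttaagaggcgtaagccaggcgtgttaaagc
CDCA8: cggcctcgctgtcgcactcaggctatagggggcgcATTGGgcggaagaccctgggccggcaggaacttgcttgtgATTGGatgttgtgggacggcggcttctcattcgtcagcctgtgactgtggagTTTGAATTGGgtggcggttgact
ASPM: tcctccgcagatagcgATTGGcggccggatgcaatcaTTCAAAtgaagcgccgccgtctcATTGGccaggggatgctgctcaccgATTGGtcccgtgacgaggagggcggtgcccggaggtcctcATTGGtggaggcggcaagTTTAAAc
NCAPG: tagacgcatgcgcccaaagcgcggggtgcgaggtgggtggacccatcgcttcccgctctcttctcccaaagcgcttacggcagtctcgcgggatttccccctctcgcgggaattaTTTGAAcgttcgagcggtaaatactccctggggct
PLK1: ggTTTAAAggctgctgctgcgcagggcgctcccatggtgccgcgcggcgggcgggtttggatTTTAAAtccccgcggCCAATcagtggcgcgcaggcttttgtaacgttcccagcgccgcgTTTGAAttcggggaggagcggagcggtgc
SPC24: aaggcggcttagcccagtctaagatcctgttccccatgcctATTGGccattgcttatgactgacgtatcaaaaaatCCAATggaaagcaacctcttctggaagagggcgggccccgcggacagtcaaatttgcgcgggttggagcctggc

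In CCNB2, 3 CCAAT boxes begin 120, 87 and 54 bases before the start site and TTTGAA begins 29 bases before it. CDC20 holds CCAAT at 100 and 55 bases and TTTGAA at 65. CDCA8 holds 3 CCAAT boxes on the opposite strand, the last of which (18 bases before the start) overlaps its TTTGAA (23 bases before). ASPM holds 4 CCAAT boxes on the opposite strand, and NCAPG holds TTTGAA at 35 bases and no CCAAT. PLK1 holds 1 CCAAT, at 73 bases, with TTTGAA at 29 bases and TTTAAA at 148 and 88. SPC24 holds 2 CCAAT boxes and neither form of the cell cycle motif in the window shown.

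Across the members the motifs were common. Of 58 members, 51 were found in the RefSeq promoter table, and AURKA, BUB3, TTK, CENPM, TPX2, BIRC5 and UBE2C were not. In windows from 250 bases before to 50 after the start site, searched on both strands, TTTGAA or TTTAAA was in 84.3% of the 51 members' promoters and in 24.3% of all 27305. CCAAT was in 78.4% against 35.7%, and at least 2 CCAAT boxes in 45.1% against 11.3%. Members were then split by their call in the comparison of all targeted and control libraries, into 41 called higher, 5 called lower and 5 not called. TTTGAA or TTTAAA was in 36 of the 41, 2 of the 5 lower and 5 of the 5 not called. CCAAT was in 33, 4 and 3, and at least 2 CCAAT boxes in 22, 1 and 0, in that order. TTTGAA or TTTAAA together with at least 2 CCAAT boxes was in 20, 0 and 0, and in 2.77% of all promoters. With 5 promoters in each of the smaller sets, these counts are a description. Of the E2F-type letters TTTCCCGC, TTTGGCGC, TTTCGCGC and TTTGCCGC, at least 1 was in 4 of the 51 members' promoters (7.84%) and in 3.33% of all. These 4 are too few for a comparison of shares. The first listed window was used for the 8 members that have 2. A match is a string of letters and not a measured binding site.

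Libraries held 34547469 to 72178929 reads. No entry of the table is named for the targeted RNA (0 of 57820), so the labels are not checked by their target. All members were well expressed: the lowest value of any member in any library was 1360 (SGOL1) and the highest was 100070 (MKI67), in the deposited normalised read counts used below, which are not divided by transcript length. The members' summed share of the counts was 1.39% to 1.51% in the 6 control libraries and 1.67% to 1.85% in the 10 targeted ones. The share of mitochondrial transcripts moved with it, 1.84% to 2.48% against 2.46% to 3.25%. The 10 T-lineage markers checked were all detected, and within each line each had a lower mean in targeted libraries than in controls, except that TRBC2 was higher in CUTLL1 (summed level 257278 to 311083 in controls and 171527 to 201132 in targeted libraries). Of 14 markers of other cell types, 8 stayed under 10 in every library and 1 had a mean of 20 or more. Their sum was 22.3 to 89.5 in controls and 33.5 to 704 in targeted libraries, the top value being KOPTK1 guide 1 with 426 of COL1A1 and 276 of COL1A2. The part of these shifts in the results was not tested. Distances between targeted libraries of the same line were taken as the mean chi-square per gene, where 1 is counting noise. They were 1.73 to 14.5 across delivery routes, 3.74 to 6.75 within guides and 2.34 to 4.10 within ASOs. CUTLL1 guide 1 and ASO 1 differed by 1.73, less than the 3.74 between the 2 CUTLL1 guide libraries, while KOPTK1 guide 2 and ASO 1 differed by 14.5.

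The members as a group were higher where lnrCXCR4 was targeted. In the joint comparison of the 10 targeted with the 6 control libraries, with the experiment as a term, all 58 members passed the filter (mean of 20 or more), and 46 were higher and 6 lower at an adjusted p under 0.05 (limma, Benjamini-Hochberg over 14020 genes). Most genes pass in this comparison: 36.2% of all tested genes were called higher and 38.8% lower, so the members' 46 of 58 stands above the background for higher genes and their 6 below that for lower genes. The median log2 difference, where 1 is a doubling and the value plus 1 was taken before the logarithm, was 0.28 over the members and -0.03 over all tested genes. From the 5th to the 95th percentile the members ran from -0.09 to 0.65, and all genes from -1.65 to 0.88. The shift was thus shared by many members and modest in each. The set of all genes holds any with a mean of 20 or more, whereas every member read 1360 or higher. Shares and percentiles over genes of like expression were not taken. With a minimum difference of 0.5 added after the data were seen, 14 members were higher and 0 lower, against 14.7% and 22.5% of all genes. As a description over 58 genes that share the same libraries, the Spearman correlation of the joint difference was 0.13 with exon length and -0.09 with control level.

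**Figure D1:**
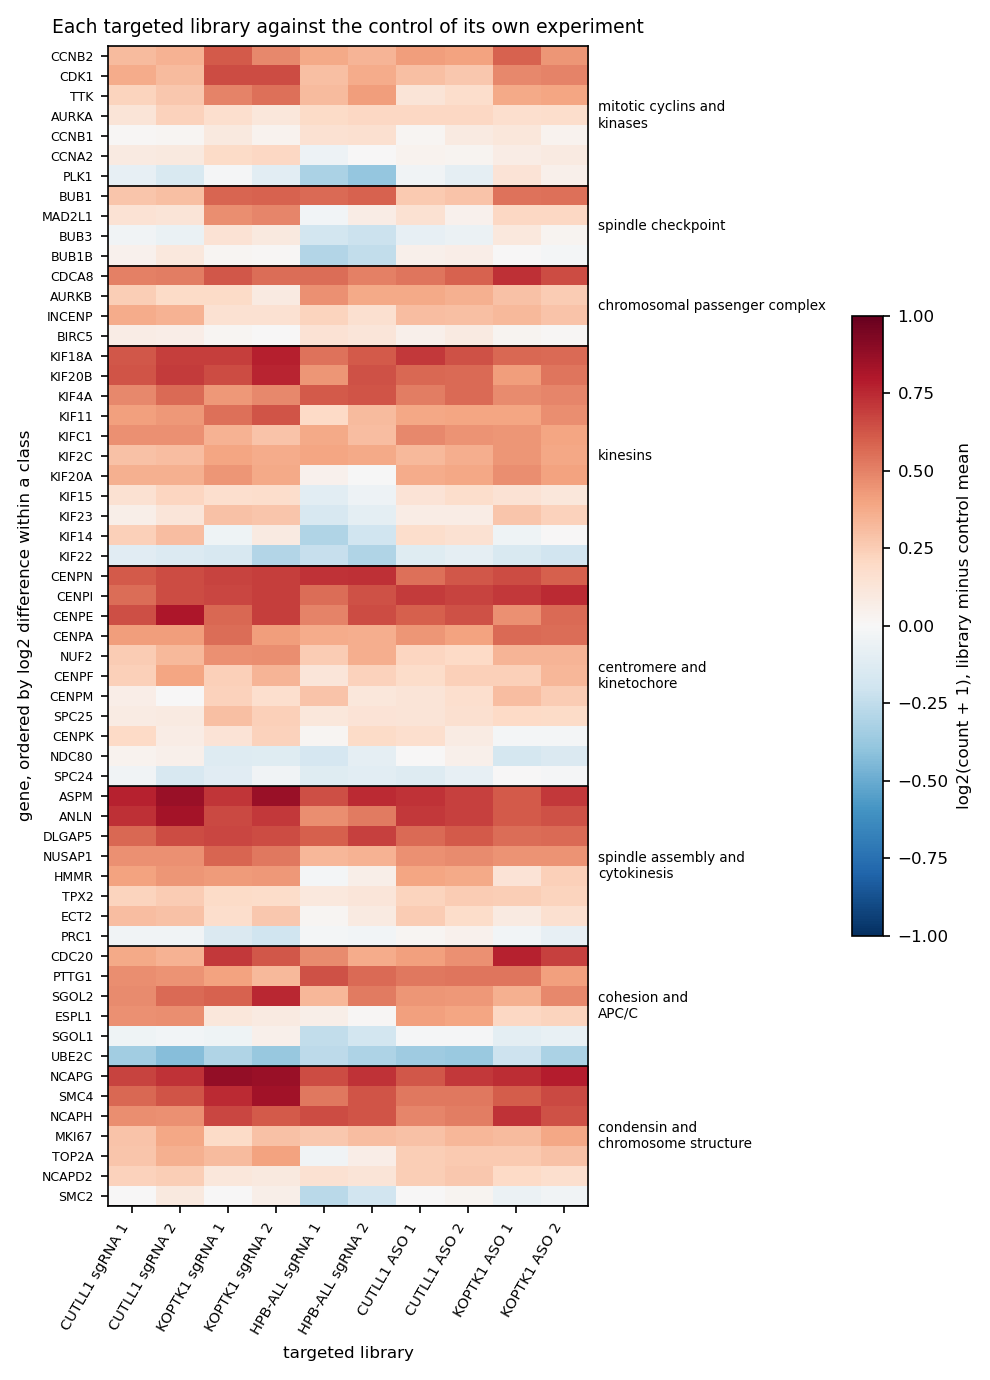
Log2(normalised count + 1) of each of the 10 targeted libraries (columns) minus the mean of its own experiment's controls, for the 58 members (rows, by functional class; red higher, blue lower). Most rows are red in all 10 libraries, with UBE2C and KIF22 blue in all 10 and PLK1, BUB1B and SMC2 bluest in the HPB-ALL guide libraries.

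The 2 delivery routes, which share no libraries, gave like counts. With guides, 44 members were higher and 3 lower (32.7% and 35% of all genes), with a median of 0.25. With ASOs, 43 were higher and 2 lower (31.8% and 33.2%), with a median of 0.30. With the minimum of 0.5, guides gave 14 higher and 0 lower members (14.9% and 21.8% of all genes) and ASOs 15 and 0 (13.9% and 20%). In each of the 10 targeted libraries taken alone, 41 to 52 of the 58 members lay above their control mean, against 47.7% to 49.1% of all genes, and the members' median shift was 0.21 to 0.33. Without KOPTK1 guide 1, the library with collagen transcripts, 45 members were higher and 4 lower in the joint comparison, and 40 and 3 with guides. Quantile scaling moved the median of all genes from -0.03 to 0.07 and that of the members from 0.28 to 0.24, and turned the split of all genes from 5076 higher and 5438 lower to 6045 and 4590. With guides that split went from 4599 and 4920 to 5522 and 4130, and with ASOs from 4359 and 4554 to 5109 and 3918. Jointly, quantile scaling thus narrowed the gap between the members' median and that of all genes. It lost the higher calls of CCNA2, CCNB1, BIRC5, KIF15 and TOP2A and the lower calls of SPC24 and SGOL1. PRC1 and SMC2 became called lower.

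**Figure D2:**
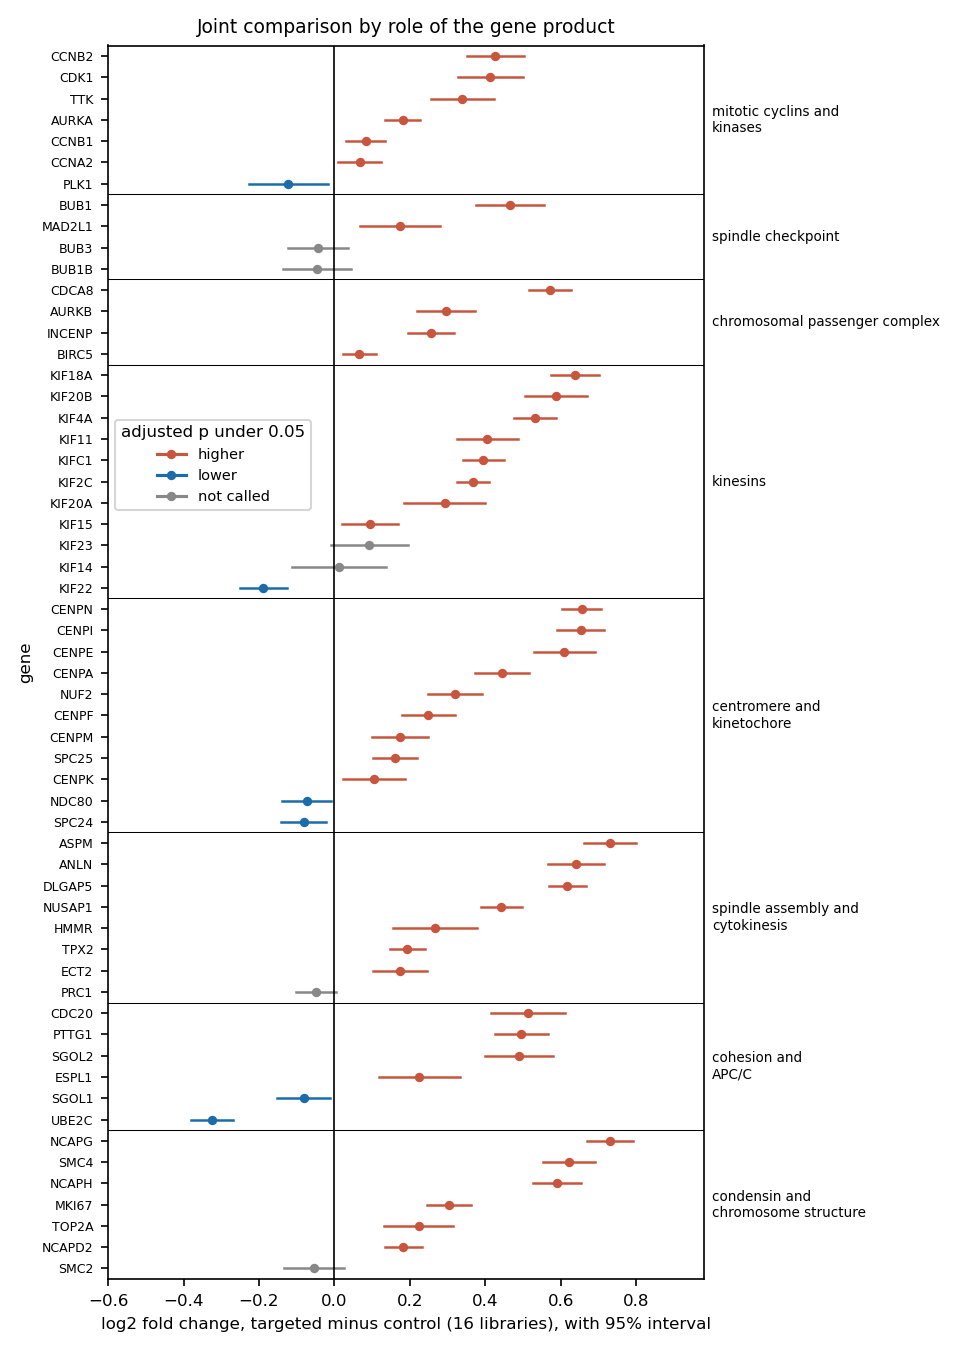
Joint log2 difference, targeted minus control, of each of the 58 members (points, with the 95% interval from limma), grouped by functional class and coloured by whether they were called higher, called lower or not called. Most points lie to the right of 0, up to 0.73 for NCAPG and ASPM, and the 6 members called lower lie between -0.32 (UBE2C) and -0.07 (NDC80).

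Of the 7 mitotic cyclins and kinases, 6 rose and 1 fell in the joint comparison, with a median of 0.18. In the values that follow, control libraries are given as guide control then ASO control (in HPB-ALL, its 2 guide controls), and targeted libraries as number 1 then number 2. CCNB2, a B-type cyclin that partners CDK1, had the smallest p of the class. CCNB2 read 7368 and 6922 in the CUTLL1 controls, then 9193 and 9388 with guides and 9239 and 9172 with ASOs. In KOPTK1, CCNB2 read 5971 and 6101 in the controls, then 9157 and 8329 with guides and 9174 and 8285 with ASOs. In HPB-ALL, CCNB2 read 7883 and 7970.2 in the controls and 10310.3 and 10008 with guides. All 10 targeted values were above all 6 controls, and the joint difference was 0.43 (SE 0.035, adjusted p 5.74e-08). CDK1 is the kinase that starts mitosis. CDK1 read 11633 and 11858 in the CUTLL1 controls, then 15040.3 and 14523 with guides and 14646 and 14303 with ASOs. In KOPTK1, CDK1 read 10232 and 10678 in the controls, then 16072 and 16081 with guides and 14910.5 and 15020.0 with ASOs. In HPB-ALL, CDK1 read 11181 and 11871 in the controls and 14179.7 and 14885 with guides. Its targeted and control libraries did not overlap either, and it rose by 0.41 (SE 0.04, adjusted p 4.03e-07), with the KOPTK1 libraries rising most. TTK, the checkpoint kinase also called MPS1, showed a control level that differed between lines. TTK read 9184 and 9437 in the CUTLL1 controls, then 10726 and 11078 with guides and 10312 and 10678 with ASOs. In KOPTK1, TTK read 6130.1 and 6274 in the controls, then 8648 and 8983 with guides and 8158 and 8232 with ASOs. In HPB-ALL, TTK read 5943 and 5953 in the controls and 7423 and 7958 with guides. Within each line the targeted libraries were the higher ones, and the joint difference was 0.34 (SE 0.039, adjusted p 2.16e-06).

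AURKA, a kinase of the spindle poles, rose by 0.18 (SE 0.021, adjusted p 2.51e-06), and was called higher in each of the 5 experiments. CCNB1, the other B-type cyclin, moved less, 0.08 (SE 0.024, adjusted p 0.00619), and among single experiments was called only with HPB-ALL guides (0.16, adjusted p 0.00139). The joint call of CCNB1 was lost with quantile scaling (0.05, adjusted p 0.139), and its guide call (0.09, adjusted p 0.0326) without any of the 4 HPB-ALL libraries (adjusted p 0.0806 to 0.0917) or KOPTK1 guide 1 (adjusted p 0.0609). CCNA2 encodes cyclin A2, which acts in S phase and G2. CCNA2 read 11337 and 11667 in the CUTLL1 controls, then 12087 and 12109.7 with guides and 11960.3 and 11870.2 with ASOs. In KOPTK1, CCNA2 read 12821 and 13297 in the controls, then 14625 and 14791 with guides and 13993 and 14150.0 with ASOs. In HPB-ALL, CCNA2 read 11650.1 and 11639.6 in the controls and 11246 and 11669 with guides. Its CUTLL1 and KOPTK1 targeted libraries lay above their controls and its HPB-ALL libraries overlapped. The joint difference was 0.07 (SE 0.026, adjusted p 0.0333), and that call was lost without any library of the CUTLL1 guide experiment or any KOPTK1 library but ASO 1, down to 0.04 (adjusted p 0.146) without the KOPTK1 guide control. It was also lost with quantile scaling (0.02, adjusted p 0.5) and with no filter (adjusted p 0.0753).

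PLK1, the polo-like kinase that acts from mitotic entry to cytokinesis, went against the class. PLK1 read 8003 and 7969.7 in the CUTLL1 controls, then 7552 and 7183 with guides and 7773 and 7502 with ASOs. In KOPTK1, PLK1 read 12743 and 12096 in the controls, then 12633 and 11815 with guides and 13329 and 12507 with ASOs. In HPB-ALL, PLK1 read 13003 and 12848 in the controls and 10403 and 9870.2 with guides. The HPB-ALL guide libraries were well below their controls, CUTLL1 was slightly below and KOPTK1 overlapped. PLK1 fell by 0.12 in the joint comparison (adjusted p 0.0339) and by 0.20 with guides (adjusted p 0.00793), and read 0.02 with ASOs (adjusted p 0.785). The joint call rests mostly on HPB-ALL (-0.35, adjusted p 1.96e-05): it was lost without any of the 4 HPB-ALL libraries (-0.11 to -0.09, adjusted p 0.0716 to 0.0779), and also without the CUTLL1 guide control, CUTLL1 guide 2 or KOPTK1 guide 2 (adjusted p 0.0606, 0.054 and 0.0524), and with no filter (adjusted p 0.0571).

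Among the 4 spindle checkpoint genes, 2 rose and 2 were not called. BUB1, a kinase that docks checkpoint proteins at the kinetochore, had the largest difference of the class. BUB1 read 19119 and 19129 in the CUTLL1 controls, then 23153 and 23525 with guides and 22879.6 and 23295 with ASOs. In KOPTK1, BUB1 read 14371 and 14330.3 in the controls, then 21468 and 21681 with guides and 20915 and 21045 with ASOs. In HPB-ALL, BUB1 read 11764 and 12031 in the controls and 17598 and 17949.6 with guides. Targeted libraries were above controls in each line, by less in CUTLL1 than in the other lines. The joint difference was 0.47 (SE 0.042, adjusted p 1.61e-07). MAD2L1 encodes MAD2, the protein that holds CDC20 inactive. MAD2L1 read 5063 and 5046 in the CUTLL1 controls, then 5587 and 5538 with guides and 5622 and 5205 with ASOs. In KOPTK1, MAD2L1 read 5812 and 6353 in the controls, then 8019 and 8168 with guides and 7349 and 7344 with ASOs. In HPB-ALL, MAD2L1 read 6936 and 7463 in the controls and 7062 and 7589 with guides. KOPTK1 was clearly higher, CUTLL1 slightly so, and the HPB-ALL libraries overlapped. It rose by 0.17 (SE 0.049, adjusted p 0.00532) in the joint comparison, or 0.11 without the KOPTK1 guide control (adjusted p 0.0123). Its guide call (0.19, adjusted p 0.0407) fell to 0.07 (adjusted p 0.198) without the KOPTK1 guide control and was lost without any other guide library but HPB-ALL control 2 and guide 1. Its ASO call (0.15) fell to 0.10 (adjusted p 0.116) without the KOPTK1 ASO control and was lost without CUTLL1 ASO 1 or either KOPTK1 ASO library (adjusted p 0.0613 to 0.0645).

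BUB1B encodes BUBR1, which with BUB3 and MAD2 forms the inhibitor of the APC/C. BUB1B read 9225 and 9189 in the CUTLL1 controls, then 9516 and 9925 with guides and 9537 and 9644 with ASOs. In KOPTK1, BUB1B read 7707 and 7475 in the controls, then 7798 and 7775 with guides and 7501 and 7381 with ASOs. In HPB-ALL, BUB1B read 9850.3 and 9762 in the controls and 8016 and 8286 with guides. The lines parted: CUTLL1 was slightly higher, KOPTK1 overlapped and HPB-ALL was lower (-0.27, adjusted p 5.37e-06). The joint value was -0.05 (adjusted p 0.323). BUB3, the adaptor that brings BUB1 and BUBR1 to the kinetochore, read -0.04 in the joint comparison (adjusted p 0.301), with opposite calls in KOPTK1 (0.12, adjusted p 0.0198) and HPB-ALL guides (-0.20, adjusted p 0.000145).

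All 4 genes of the chromosomal passenger complex rose in the joint comparison. This complex sits on the centromere and corrects wrong attachments, with AURKB as its kinase, INCENP as its scaffold, and CDCA8 (borealin) and BIRC5 (survivin) as the subunits that bring it there. CDCA8 read 7821 and 7683 in the CUTLL1 controls, then 11068 and 11169.8 with guides and 11122 and 11571 with ASOs. In KOPTK1, CDCA8 read 10119 and 9672 in the controls, then 15583 and 14923 with guides and 16015 and 15165 with ASOs. In HPB-ALL, CDCA8 read 9811 and 9739 in the controls and 14385 and 13825 with guides. The groups did not overlap across the 3 lines, and CDCA8 rose by 0.57 (SE 0.026, adjusted p 1.62e-10). INCENP read 8319 and 8489 in the CUTLL1 controls, then 10742 and 10576 with guides and 10518 and 10481 with ASOs. In KOPTK1, INCENP read 10848 and 10159 in the controls, then 12086 and 12081 with guides and 12689 and 12405 with ASOs. In HPB-ALL, INCENP read 10374 and 9783 in the controls and 11782 and 11230.5 with guides. INCENP was higher within each line, most in CUTLL1, with a joint difference of 0.26 (SE 0.028, adjusted p 1.39e-06). AURKB read 7848 and 7476 in the CUTLL1 controls, then 9305 and 8978 with guides and 9727 and 9550.5 with ASOs. In KOPTK1, AURKB read 8644 and 8242 in the controls, then 9865 and 9209 with guides and 10078 and 9822 with ASOs. In HPB-ALL, AURKB read 7295 and 7087 in the controls and 9872 and 9354 with guides. Every targeted value of AURKB was above every control, and its joint difference was 0.30 (SE 0.035, adjusted p 3.26e-06). BIRC5 moved least, 0.07 (SE 0.021, adjusted p 0.00973), its joint call was lost with quantile scaling (0.04, adjusted p 0.159), and its guide call (0.08, adjusted p 0.0418) was lost without any of the 4 HPB-ALL libraries (0.07 in each case, adjusted p 0.0942 to 0.116) and without any library of the CUTLL1 guide experiment or KOPTK1 guide 1 (adjusted p 0.0549 to 0.0761).

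Of the 11 kinesins, the microtubule motors, 8 rose, 1 fell and 2 were not called, with a median of 0.37. KIF18A, a motor that damps chromosome movement at the metaphase plate, rose most of the class. KIF18A read 2079 and 2005 in the CUTLL1 controls, then 3204 and 3357 with guides and 3268 and 3119 with ASOs. In KOPTK1, KIF18A read 2429.6 and 2533 in the controls, then 3929.9 and 4155 with guides and 3776 and 3757 with ASOs. In HPB-ALL, KIF18A read 2724 and 2584 in the controls and 3869 and 4066 with guides. Its groups did not overlap, and it rose by 0.64 (SE 0.03, adjusted p 1.82e-10). KIF4A, a chromosome-bound motor of the spindle midzone, may share reads with its near-identical copy KIF4B. KIF4A read 6039 and 5988 in the CUTLL1 controls, then 8416 and 8934 with guides and 8524 and 8853 with ASOs. In KOPTK1, KIF4A read 6107 and 5763 in the controls, then 8242 and 8518 with guides and 7989.6 and 8100.5 with ASOs. In HPB-ALL, KIF4A read 6321 and 6234 in the controls and 9596 and 9686 with guides. Targeted libraries were above all controls, with a joint difference of 0.53 (SE 0.026, adjusted p 2.6e-10). KIF20B (0.59), the bipolar motor KIF11 (0.40), the minus-end motor KIFC1 (0.39) and the microtubule depolymerase KIF2C (0.37) rose as well, each called higher in all 5 experiments.

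KIF20A and KIF23 encode motors of the central spindle and cytokinesis, and both differed between lines. KIF20A read 6927 and 6855 in the CUTLL1 controls, then 8859 and 8878 with guides and 8861 and 8981 with ASOs. In KOPTK1, KIF20A read 6001 and 5829 in the controls, then 8138 and 7814 with guides and 8047 and 7689 with ASOs. In HPB-ALL, KIF20A read 6128 and 5948 in the controls and 6212 and 6017 with guides. In CUTLL1 and KOPTK1 the targeted libraries were higher, while the HPB-ALL libraries overlapped. KIF20A rose by 0.29 (SE 0.05, adjusted p 0.00011), and its guide call (0.23) was lost without the CUTLL1 or the KOPTK1 guide control (0.17 and 0.15, adjusted p 0.0641 and 0.0686). KIF23 read 5988 and 5888 in the CUTLL1 controls, then 6228 and 6505 with guides and 6203 and 6185 with ASOs. In KOPTK1, KIF23 read 4141 and 4119 in the controls, then 5072 and 5009 with guides and 5001 and 4844 with ASOs. In HPB-ALL, KIF23 read 6936 and 6843 in the controls and 6156 and 6433 with guides. KIF23 was higher in KOPTK1 and in CUTLL1 libraries and lower in HPB-ALL libraries, and the joint value was 0.09 (adjusted p 0.0936). It was called with ASOs (0.17, adjusted p 0.0215), a call lost without any KOPTK1 ASO-experiment library (0.07 to 0.16, adjusted p 0.0562 to 0.107). KIF14, another cytokinesis motor, had a joint value of 0.01 (adjusted p 0.854) made of 0.28 in CUTLL1, 0.02 in KOPTK1 and -0.25 in HPB-ALL with guides. KIF15, which helps KIF11 hold the spindle apart, rose by 0.09 (SE 0.035, adjusted p 0.0244), a call lost without either CUTLL1 control or either KOPTK1 control (0.07 to 0.09, adjusted p 0.064 to 0.0891) and with quantile scaling (0.06, adjusted p 0.116).

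KIF22, a motor that binds chromosome arms and pushes them toward the spindle equator, was the kinesin that fell. KIF22 read 14009.8 and 14147 in the CUTLL1 controls, then 12935 and 12710.3 with guides and 13023 and 13274 with ASOs. In KOPTK1, KIF22 read 13748 and 13738 in the controls, then 12311 and 11203 with guides and 12372 and 11999.9 with ASOs. In HPB-ALL, KIF22 read 5811 and 5992 in the controls and 5017 and 4777 with guides. Every targeted library was below its own line's controls, and HPB-ALL expressed the gene at a far lower level than the other lines. KIF22 fell by 0.19 in the joint comparison (adjusted p 3.64e-05).

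Of the 11 centromere and kinetochore genes, 9 rose and 2 fell, with a median of 0.25. CENPN reads the centromeric histone, and CENPI belongs to the inner kinetochore network built on it. CENPN read 4408 and 4506 in the CUTLL1 controls, then 6741 and 6912 with guides and 6599.6 and 6912 with ASOs. In KOPTK1, CENPN read 3679 and 3676 in the controls, then 5863 and 5927 with guides and 5765 and 5548 with ASOs. In HPB-ALL, CENPN read 3248 and 3318 in the controls and 5428 and 5436 with guides. CENPN had no overlap between targeted and control libraries, and rose by 0.66 (SE 0.024, adjusted p 2e-11). CENPI read 1761 and 1664 in the CUTLL1 controls, then 2593 and 2764 with guides and 2698 and 2658 with ASOs. In KOPTK1, CENPI read 1572 and 1465 in the controls, then 2500.0 and 2539.8 with guides and 2388 and 2461 with ASOs. In HPB-ALL, CENPI read 1738 and 1643 in the controls and 2487 and 2628 with guides. CENPI, the member with the lowest control level per transcript length, behaved alike within each line, at 0.65 (SE 0.029, adjusted p 1.23e-10). The centromeric histone CENPA (0.44), the kinetochore motor CENPE (0.61), the large fibrous protein CENPF (0.25) and CENPM (0.17) rose too. CENPK rose by 0.11 (SE 0.038, adjusted p 0.022), a call lost without the CUTLL1 or KOPTK1 guide control, HPB-ALL guide 2 or the CUTLL1 ASO control (0.09 to 0.10, adjusted p 0.0512 to 0.0721). Its guide call (0.14, adjusted p 0.0378) was lost without the CUTLL1 or KOPTK1 guide control, CUTLL1 guide 1, KOPTK1 guide 2, HPB-ALL control 1 or HPB-ALL guide 2 (0.11 to 0.13, adjusted p 0.0706 to 0.114) and with no filter (adjusted p 0.0806).

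The NDC80 complex is the rod that grips the microtubule, and its 4 subunits split. NUF2 rose by 0.32 (SE 0.033, adjusted p 7.95e-07) and SPC25 by 0.16 (SE 0.027, adjusted p 0.000101), while their partners NDC80 and SPC24 were lower in the joint comparison. NDC80 was not called in the guide comparison (-0.08, adjusted p 0.104) or the ASO comparison (-0.07, adjusted p 0.274). Nor was SPC24 (guides -0.10, adjusted p 0.0528, and ASOs -0.05, adjusted p 0.305). NDC80 read 8412 and 8452 in the CUTLL1 controls, then 8614 and 8719.9 with guides and 8472 and 8766 with ASOs. In KOPTK1, NDC80 read 4866 and 4957 in the controls, then 4443 and 4486 with guides and 4379.8 and 4491 with ASOs. In HPB-ALL, NDC80 read 5755 and 5528 in the controls and 5027 and 5297 with guides. CUTLL1 targeted libraries were slightly above their controls and those of KOPTK1 and HPB-ALL were below. The joint fall of NDC80 was 0.07 (adjusted p 0.04), a call lost without CUTLL1 ASO 1 or any KOPTK1 or HPB-ALL library (adjusted p up to 0.143, without the KOPTK1 ASO control). It was also lost by edgeR (adjusted p 0.0904), by DESeq2 (adjusted p 0.0594) and with no filter (adjusted p 0.0901). SPC24 read 2717 and 2737 in the CUTLL1 controls, then 2651 and 2430.1 with guides and 2507 and 2586 with ASOs. In KOPTK1, SPC24 read 2251 and 2249.5 in the controls, then 2079 and 2201 with guides and 2258 and 2235 with ASOs. In HPB-ALL, SPC24 read 1801 and 1754 in the controls and 1635 and 1649 with guides. CUTLL1 and HPB-ALL were lower and KOPTK1 overlapped, and SPC24 fell by 0.08 (adjusted p 0.0169), a call lost by edgeR (-0.07, adjusted p 0.0574), with quantile scaling (-0.05, adjusted p 0.153) and with no filter (adjusted p 0.0549).

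**Figure D3:**
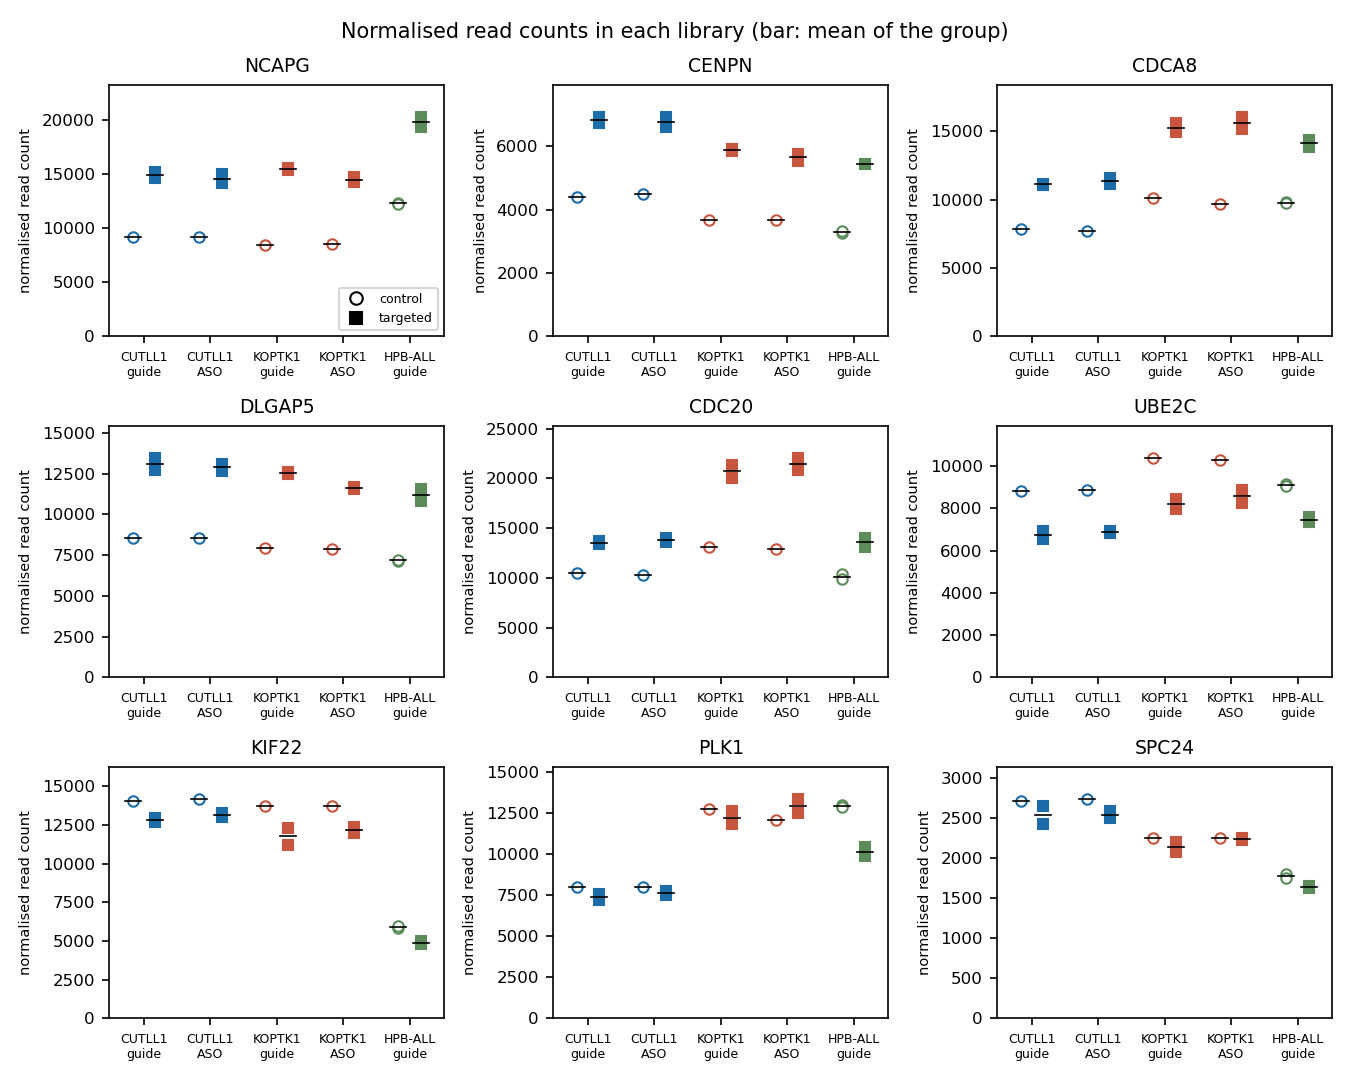
Normalised read counts of 9 members in each of the 16 libraries by experiment, 1 panel per gene with an axis from 0 (open circles are controls, filled squares targeted libraries, bars group means). Targeted libraries of NCAPG, CENPN, CDCA8, DLGAP5 and CDC20 lie above the controls of their line, those of UBE2C and KIF22 lie below, and PLK1 is clearly lower in HPB-ALL alone.

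Of the 8 spindle assembly and cytokinesis genes, 7 rose and PRC1 was not called, with a median of 0.35. DLGAP5 (also HURP) stabilises fibres near the chromosomes, and ASPM gathers microtubule minus ends at the spindle poles. DLGAP5 read 8537 and 8563 in the CUTLL1 controls, then 12710.4 and 13447 with guides and 12673 and 13114 with ASOs. In KOPTK1, DLGAP5 read 7912 and 7867 in the controls, then 12591 and 12461 with guides and 11559 and 11673 with ASOs. In HPB-ALL, DLGAP5 read 7127 and 7225 in the controls and 10856 and 11550.4 with guides. Controls and targeted libraries did not overlap, and DLGAP5 rose by 0.62 (SE 0.023, adjusted p 1.89e-11). ASPM read 12223 and 12709 in the CUTLL1 controls, then 20874 and 22194 with guides and 20952 and 20452 with ASOs. In KOPTK1, ASPM read 15243 and 15278 in the controls, then 25083 and 27768 with guides and 23426 and 24913 with ASOs. In HPB-ALL, ASPM read 15447 and 14583 in the controls and 23435 and 25122 with guides. ASPM showed the same separation and, with NCAPG, the largest joint difference of the members, 0.73 (SE 0.032, adjusted p 1.16e-10). HMMR, a microtubule-binding protein of the poles, differed between lines. HMMR read 6832 and 6867 in the CUTLL1 controls, then 9006 and 9269 with guides and 9040.2 and 8927 with ASOs. In KOPTK1, HMMR read 6353 and 6792 in the controls, then 8535 and 8599 with guides and 7477 and 8017 with ASOs. In HPB-ALL, HMMR read 6479 and 6865 in the controls and 6594 and 6953 with guides. CUTLL1 and KOPTK1 targeted libraries were above their controls and HPB-ALL overlapped; the joint difference was 0.27 (SE 0.052, adjusted p 0.000338), and the guide call (0.25) was lost without the CUTLL1 or the KOPTK1 guide control (0.19 and 0.18, adjusted p 0.0634 and 0.0652). ANLN, a scaffold of the contractile ring, rose by 0.64, the spindle protein NUSAP1 by 0.44, TPX2, the activator of AURKA, by 0.19, and ECT2, which starts ring assembly, by 0.17. PRC1, which crosslinks the central spindle, read -0.05 (adjusted p 0.09), and was called lower with quantile scaling (-0.07, adjusted p 0.0362).

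Of the 6 genes of sister chromatid cohesion and the APC/C, 4 rose and 2 fell, with a median of 0.36. PTTG1 encodes securin, which holds separase back, and may share reads with its copy PTTG2. PTTG1 read 5051 and 4884 in the CUTLL1 controls, then 6965 and 6884 with guides and 7041 and 7082 with ASOs. In KOPTK1, PTTG1 read 5483 and 5262 in the controls, then 7259 and 6868 with guides and 7641 and 6996 with ASOs. In HPB-ALL, PTTG1 read 5398 and 5219.8 in the controls and 8242 and 7850.2 with guides. Every targeted value was above every control, and PTTG1 rose by 0.50 (SE 0.033, adjusted p 6.18e-09). CDC20 is the activator of the APC/C that the checkpoint restrains. CDC20 read 10489 and 10257 in the CUTLL1 controls, then 13668 and 13360.2 with guides and 13613 and 14053 with ASOs. In KOPTK1, CDC20 read 13069 and 12943 in the controls, then 21346 and 20086 with guides and 22017 and 20811 with ASOs. In HPB-ALL, CDC20 read 10356 and 9858 in the controls and 14015 and 13099.8 with guides. The groups did not overlap, KOPTK1 moved most, and the joint difference was 0.51 (SE 0.045, adjusted p 1.25e-07). ESPL1 encodes separase, the protease that cuts cohesin. ESPL1 read 7877 and 8107 in the CUTLL1 controls, then 10840.0 and 10891 with guides and 10792 and 10679 with ASOs. In KOPTK1, ESPL1 read 14310.1 and 13607 in the controls, then 15506 and 15232 with guides and 15725 and 15864 with ASOs. In HPB-ALL, ESPL1 read 7885 and 7617 in the controls and 8057 and 7804 with guides. CUTLL1 rose most, KOPTK1 rose less from the highest control level, and HPB-ALL overlapped. The joint difference of ESPL1 was 0.22 (SE 0.05, adjusted p 0.000914), and its guide call (0.18) fell to 0.06 (adjusted p 0.128) without the CUTLL1 guide control and was lost without either CUTLL1 guide library or KOPTK1 guide 1 (adjusted p 0.0593 to 0.0736).

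UBE2C, the ubiquitin-conjugating enzyme that works with the APC/C, fell most of all members. UBE2C read 8803 and 8856 in the CUTLL1 controls, then 6935 and 6536 with guides and 6914 and 6846 with ASOs. In KOPTK1, UBE2C read 10367 and 10271 in the controls, then 8430.0 and 7974 with guides and 8885 and 8247 with ASOs. In HPB-ALL, UBE2C read 9158 and 9061 in the controls and 7578 and 7336 with guides. In each line every targeted library was below both controls, and UBE2C fell by 0.32 (adjusted p 5.1e-08). The shugoshins protect centromeric cohesion: SGOL2 rose by 0.49 (SE 0.042, adjusted p 1.02e-07), and SGOL1 was lower in the joint comparison. SGOL1 was not called in the guide comparison (-0.10, adjusted p 0.0937) or the ASO comparison (-0.05, adjusted p 0.318). SGOL1 read 2407 and 2328 in the CUTLL1 controls, then 2333 and 2364 with guides and 2312 and 2304 with ASOs. In KOPTK1, SGOL1 read 2135 and 2221 in the controls, then 2075 and 2206 with guides and 2078 and 2114 with ASOs. In HPB-ALL, SGOL1 read 1595 and 1629 in the controls and 1360.3 and 1418 with guides. Targeted and control libraries overlapped in CUTLL1 and KOPTK1 and were apart in HPB-ALL. SGOL1 fell by 0.08 (adjusted p 0.0377), a call lost without any of the 4 HPB-ALL libraries (adjusted p 0.0725 to 0.086), without CUTLL1 guide 1, KOPTK1 guide 1, the KOPTK1 ASO control or KOPTK1 ASO 1 (adjusted p 0.0517 to 0.0688), by edgeR (adjusted p 0.0695), with quantile scaling (-0.04, adjusted p 0.224) and with no filter (adjusted p 0.0924). Without any 1 HPB-ALL library, 3 members in place of 6 were called lower in the joint comparison, and edgeR also gave 3.

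Of the 7 condensin and chromosome structure genes, 6 rose and SMC2 was not called, with a median of 0.30. NCAPG and NCAPH are subunits of condensin I. NCAPG read 9167 and 9178 in the CUTLL1 controls, then 14610.3 and 15129 with guides and 14120.2 and 14973 with ASOs. In KOPTK1, NCAPG read 8427 and 8525 in the controls, then 15498 and 15316 with guides and 14196 and 14659 with ASOs. In HPB-ALL, NCAPG read 12306 and 12242 in the controls and 19292 and 20203 with guides. NCAPG had no overlap between groups and rose by 0.73 (SE 0.028, adjusted p 3.01e-11). NCAPH read 10396 and 10076 in the CUTLL1 controls, then 14348 and 14308 with guides and 14100.2 and 14376 with ASOs. In KOPTK1, NCAPH read 8295 and 8107 in the controls, then 13154 and 12664 with guides and 13371 and 12629.9 with ASOs. In HPB-ALL, NCAPH read 6489.8 and 6470.2 in the controls and 10211 and 10002 with guides. Within each line the targeted NCAPH values were above the controls, whose level was highest in CUTLL1, and the joint difference was 0.59 (SE 0.03, adjusted p 3.94e-10). SMC4, 1 of the 2 core ATPases, rose by 0.62 (SE 0.032, adjusted p 5.38e-10), whereas its partner SMC2 read -0.05 (adjusted p 0.197; -0.08 and adjusted p 0.0343 with quantile scaling), with -0.23 in HPB-ALL (adjusted p 0.000135). NCAPD2 rose by 0.18, or 0.11 with quantile scaling (adjusted p 0.000335). MKI67, the coat protein of mitotic chromosomes used as a proliferation marker, rose by 0.30 (SE 0.027, adjusted p 1.41e-07), or 0.16 with quantile scaling (adjusted p 0.00273). TOP2A, the topoisomerase that untangles sister chromatids, rose by 0.22 (SE 0.043, adjusted p 0.000278), but read 0.02 (adjusted p 0.793) with quantile scaling, and its guide call (0.20) was lost without the CUTLL1 or the KOPTK1 guide control (0.15 and 0.14, adjusted p 0.0887 and 0.0996).

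The 5 experiments were then set side by side, each tested in 1 fit of group means in which a lone control was assumed to vary like the other groups. CUTLL1 had 41 members higher and 1 lower with guides, and the same counts with ASOs. KOPTK1 had 45 and 4 with guides and 44 and 3 with ASOs. HPB-ALL had 37 and 12, the most members lower. It had 2 controls where each other experiment had 1, so the 5 tests do not have the same power. The background for higher genes was 30.8%, 30.5%, 31%, 30.6% and 34% in that order, and for lower genes 31.5%, 31.8%, 33.1%, 32.8% and 36.9%. The members' medians were 0.31, 0.28, 0.34, 0.29 and 0.20. In CUTLL1 the 1 member lower with guides and with ASOs was UBE2C. In KOPTK1 the members lower with guides were KIF22, NDC80, PRC1 and UBE2C, and those with ASOs KIF22, NDC80 and UBE2C. In HPB-ALL they were PLK1, BUB1B, BUB3, KIF14, KIF15, KIF22, KIF23, NDC80, SPC24, SGOL1, UBE2C and SMC2.

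The same direction in all 5 experiments was common. Of the members, 43 were above 0 in every experiment (32.2% of all genes) and 33 were called higher in every one (19.8%). Only KIF22, SPC24 and UBE2C were below 0 in all 5 (33.4% of all genes), and only UBE2C was called lower in all 5 (20.8%). BUB3, KIF14, KIF15 and KIF23 were called higher in 1 experiment and lower in another (5.8% of all genes). By the deposited normalised counts, with guide and ASO libraries together, targeted libraries lay above all controls of the line for 49 members in CUTLL1 (39% of all genes), 46 in KOPTK1 (36.7%) and 37 in HPB-ALL (40.8%), and for 35 members in each of the 3 lines (27%). They lay below for 5, 4 and 13 members (40.4%, 39.1% and 43.9%), and in each line for KIF22 and UBE2C (28.1%). HPB-ALL sets 2 targeted libraries against 2 controls and the other lines 4 against 2, so libraries stay apart more easily in HPB-ALL.

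Guides and ASOs were compared in CUTLL1 and KOPTK1. No gene passed the test of guide effect minus ASO effect (0 of 14020 by limma, the only tool run on it, and 0 members), while 1393 genes (9.94%) and 8 members had an unadjusted p under 0.05. Those 8 were CCNA2, CDK1, TTK, MAD2L1, AURKB, HMMR, PRC1 and SMC4. The members' differences ran from -0.14 to 0.17 on the log2 scale, with 95% intervals that reached from -0.24 to 0.35 and a median width of 0.20. AURKB, whose control and targeted counts are given above, had the smallest p, with a difference of -0.14 (95% interval -0.24 to -0.03, adjusted p 0.496). CCNA2 had 0.09 (0.02 to 0.16), HMMR 0.14 (0.03 to 0.25), MAD2L1 0.15 (0.03 to 0.28) and CDK1 0.11 (0.02 to 0.21), at the same adjusted p. These intervals leave room for differences of that size either way, so the routes are not shown to act alike. Between guide 2 and guide 1, 0 of 13718 genes and 0 members passed by limma, the only tool run on it, with 2193 genes (15.99%) and 22 members at an unadjusted p under 0.05 and member differences of -0.10 to 0.15.

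The guide effect differed between the 3 lines for 30 of 58 members by an F test in the fit of group means (51.7%, against 43.7% of all genes). Among those 30 the effect was lowest in HPB-ALL for 22, and highest in KOPTK1 for 17, in CUTLL1 for 9 and in HPB-ALL for 4. That split was not counted over all genes, so it is not shown to be particular to the members. ESPL1 had the smallest adjusted p, 5.15e-05, with effects of 0.46 in CUTLL1, 0.10 in KOPTK1 and 0.03 in HPB-ALL. KIF20A (adjusted p 0.000209) had 0.36, 0.41 and 0.02, and BUB1B (adjusted p 0.000239) had 0.08, 0.01 and -0.27. KIF23 (adjusted p 0.000274) had 0.09, 0.28 and -0.13. In these 4 the HPB-ALL effect was the lowest, whereas BUB1 (adjusted p 0.000287) was lowest in CUTLL1, at 0.29 against 0.59 in KOPTK1 and 0.58 in HPB-ALL. Members whose effect was near equal in the 3 lines included DLGAP5 (0.61, 0.66 and 0.64, adjusted p 0.8) and SPC24 (-0.10, -0.07 and -0.11, adjusted p 0.887), chosen after their values were seen; a p that misses the threshold does not show equality. Without KOPTK1 guide 1, 28 members passed.

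**Figure D4:**
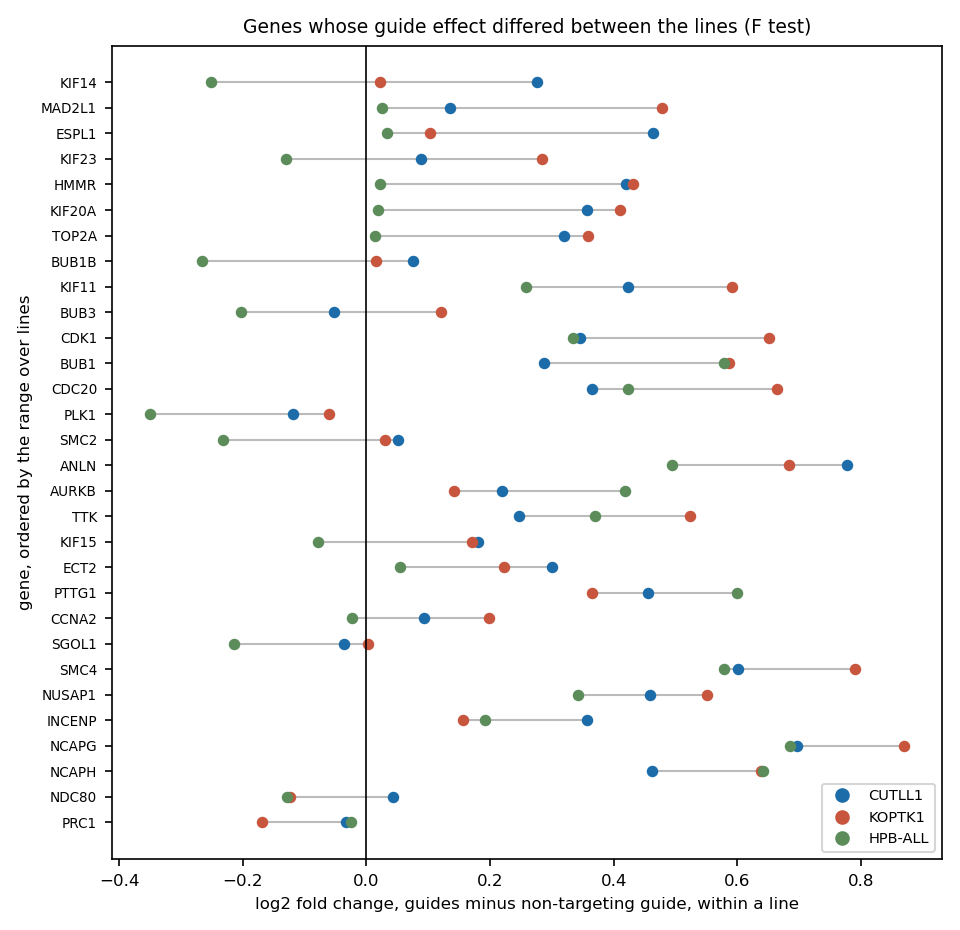
Guide effect (log2, targeted minus control) in CUTLL1, KOPTK1 and HPB-ALL for the 30 members that passed the F test of a difference between lines. For 22 of them the HPB-ALL point is the lowest of the 3, and for BUB1, TTK, CDC20 and NCAPH the CUTLL1 point is (not counted over all genes).

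KOPTK1 and CUTLL1, the lines with both routes, were compared over guides and ASOs together. The effect was higher in KOPTK1 for 10 members and lower for 5 (17.2% and 8.62% of the members, against 13.8% and 13.7% of all genes). The share higher was near that of all genes, and the share lower was below it. BUB1 differed by 0.29 (SE 0.031, adjusted p 5.74e-05), CDK1 by 0.25 (SE 0.043, adjusted p 0.00132), TTK by 0.25 (SE 0.045, adjusted p 0.00166) and CDC20 by 0.30 (SE 0.054, adjusted p 0.00206), all higher in KOPTK1, and ESPL1 by -0.28 (SE 0.034, adjusted p 0.000146), lower in KOPTK1. MAD2L1, KIF23, NCAPH, BUB3, SMC4 and NCAPG were the others higher in KOPTK1, and KIF14, NDC80, PRC1 and NCAPD2 the others lower. Without KOPTK1 guide 1 the counts were 9 and 5. The 5 fell to 3 without any one of the CUTLL1 guide or ASO libraries or KOPTK1 ASO 2.

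Control levels of most genes, the members among them, already differed between the lines. By an F test over the 6 control libraries 55 of 58 members differed, where 92.7% of all 14228 genes did, and KIF4A, KIFC1 and HMMR did not pass. The highest control mean was in CUTLL1 for 25 members, KOPTK1 for 15 and HPB-ALL for 18. The ratio of the highest to the lowest line had a median of 1.31 and was above 1.5 for 15 members and above 2 for KIF15 and KIF22. The counts of highest lines and of ratios were not made over all genes. KIF15 read 12722 ± 15.8, 8427 ± 94.9 and 5269.7 ± 34.2 (SD, n = 2 each) in CUTLL1, KOPTK1 and HPB-ALL controls. KIF22 read 14078 ± 96.7, 13743 ± 7.07 and 5901 ± 128 (SD, n = 2 each). BIRC5 was highest in KOPTK1, at 18138 ± 160.1 against 9460.0 ± 107 in CUTLL1 and 11495 ± 124 in HPB-ALL (SD, n = 2 each). In CUTLL1 and KOPTK1 these pairs are a guide control and an ASO control. Per kilobase of exon, on GENCODE v29 lengths, the control medians were highest for TOP2A (12275), TPX2 (8201), NUSAP1 (7356), UBE2C (7083) and CCNB1 (6795), and lowest for CENPI (435), CENPE (522) and SGOL1 (574).

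Since partners of a complex moved unequally, their count ratios were taken within each library, for pairs chosen after the values were seen and with no test. Ratios of counts can be compared between libraries but not between pairs, because the genes differ in length. SMC4 to SMC2, the 2 core condensin ATPases, was 1.66 to 2.33 in the 6 controls and 2.92 to 3.43 in the 10 targeted libraries. BUB1 to BUB3 was 0.764 to 1.10 against 1.28 to 1.402. CDC20 to UBE2C was 1.09 to 1.26 against 1.79 to 2.53. In these 3 pairs no targeted library fell within the range of the controls. The NUF2 to NDC80 ratio overlapped over all libraries but rose within each line: 0.618 to 0.639 against 0.706 to 0.745 in CUTLL1, 0.657 to 0.661 against 0.923 to 0.986 in KOPTK1, and 0.926 to 1.06 against 1.32 to 1.36 in HPB-ALL. CDCA8 to BIRC5 likewise overlapped over all libraries (0.530 to 0.860 against 0.825 to 1.14) and was apart within each line. CCNB1 to CDK1 went the other way, 1.25 to 1.44 in controls and 0.925 to 1.23 in targeted libraries. BUB1B to BUB3, 0.493 to 0.640 against 0.459 to 0.620, showed no separation over all libraries. Within lines it was apart in opposite directions, higher in targeted libraries of CUTLL1 (0.525 to 0.527 in controls, 0.557 to 0.591 in targeted libraries) and lower in KOPTK1 (0.493 to 0.517 against 0.459 to 0.488) and HPB-ALL (0.622 to 0.640 against 0.587 to 0.620).

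**Figure D5:**
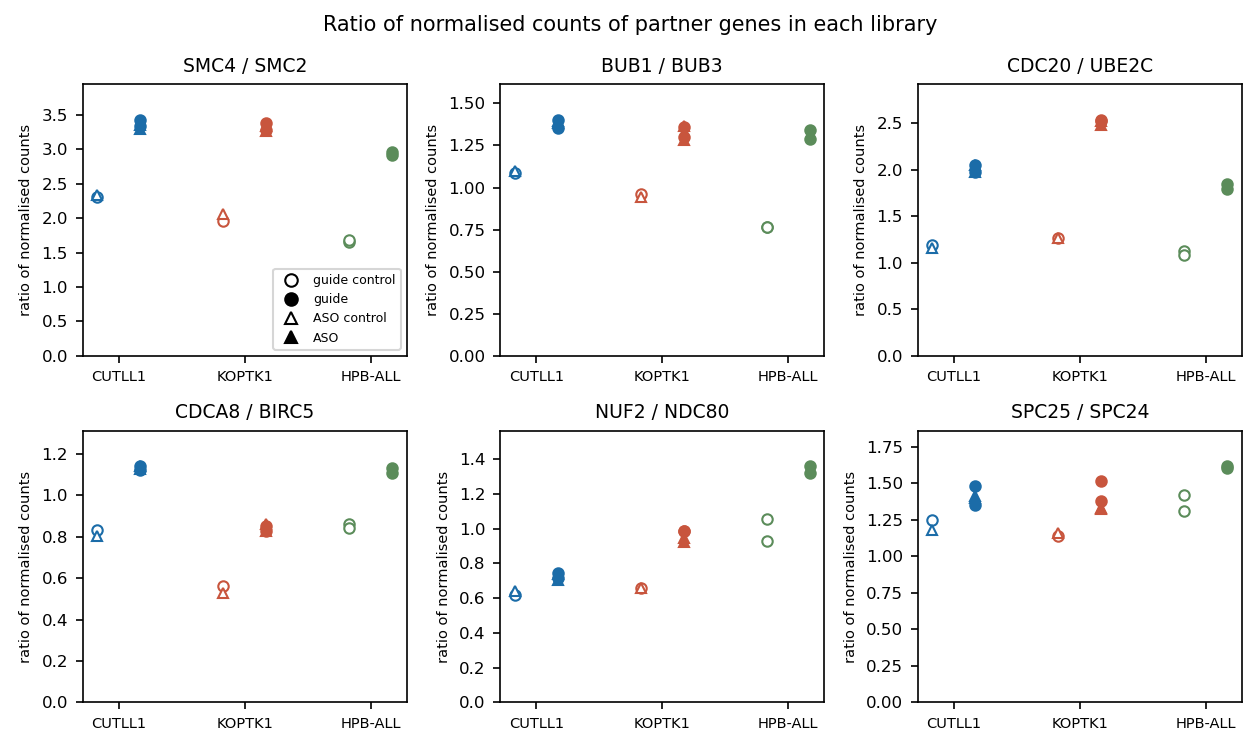
Ratio of normalised counts of 2 partner genes in each of the 16 libraries, by line, for 6 pairs (open for controls, filled for targeted libraries; circles for guide and triangles for ASO experiments). SMC4/SMC2, BUB1/BUB3 and CDC20/UBE2C are higher in every targeted library than in every control, and the other 3 pairs are higher within each line.

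Other genes of the same processes, on lists by function, were counted in the joint comparison. Of 26 further centromere and kinetochore genes 13 rose and 6 fell, CASC5 (KNL1) by 0.79, DSN1 by 0.59 and CENPC by 0.51. Of 11 cohesin genes 6 rose and 4 fell, with the acetyltransferase ESCO2 at 0.76, the loader NIPBL at 0.38 and SMC3 at 0.26. All 3 condensin II subunits rose, NCAPH2 by 0.28, NCAPD3 by 0.19 and NCAPG2 by 0.12. Of 16 APC/C genes 9 rose and 5 fell, ANAPC1 reading -0.39, ANAPC11 0.50 and ANAPC2 0.32. Of 10 genes of mitotic entry 7 rose and 2 fell, with the phosphatase CDC25C at 0.61, the kinase MASTL at 0.53 and CKS2 at 0.56. Among 23 regulators of this transcription programme (MuvB subunits, MYB family, FOXM1, E2F and NF-Y genes), 6 rose and 10 fell. FOXM1, an activator of G2 and mitosis genes, read -0.57, E2F4 of the DREAM complex -0.38, and NFYA, a subunit of NF-Y, 0.81. Of 27 DNA replication genes 14 rose and 9 fell, with RRM2 at 0.85, POLE at 0.60 and MCM7 at -0.44. Each count is read against 36.2% higher and 38.8% lower among all genes tested.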

How the data were processed

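Poly(A) or other RNA selection is not given in the sources used here; libraries were made from total RNA with a directional Illumina kit, per the labels' protocols. The authors' deposited table holds a signal in normalised read counts. Each of its 16 columns is whole reads divided by 1 factor: 100% of values were whole multiples of the column's step within a tolerance of 1e-06. The submitters' processing notes name STAR 1.4.2, DESeq2 and hg19 but not what each was used for. The counter, annotation and strand setting of the count step are unknown, so overlapping, antisense and near-identical genes may share reads. Because the values are scaled, log2(value + 1) was tested with limma 3.58.1 in R 4.3.3 (intensity trend, mean of 20 or more, Benjamini-Hochberg over all genes tested, adjusted p under 0.05).

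The guide comparison took 10 libraries with line as a term, the ASO comparison 6 with line, and the joint comparison every library with a term for its experiment, so its libraries are those of the other comparisons. Single experiments, the F test over lines and differences of effects came from 1 fit of 10 group means. Values of every library were given for the 2 members with the smallest joint p in each class, those called against the majority, and the 5 with the smallest p in each test of a difference between effects; related lists have up to 3 examples by joint p. The members and all lists were chosen with earlier results of these data known. Of the listed related symbols, CENPC1, CENPU, CKS1B and RBL1 had no row.

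Alternatives were a pseudocount of 5, no filter, a filter at 100, quantile and median-of-ratios scaling, a block for the replicate number, robust moderation, leaving out each library, edgeR 4.0.16 (quasi-likelihood) and DESeq2 1.42.0 on recovered reads, and a log2 minimum of 0.5. The tests on recovered reads left out CUTLL1 ASO 1 as a caution, because its read step (0.999) is near 1. Its values did pass the whole-read check, and its recovered reads were used for the distances between libraries. The tests were also run on simulated counts, in which few genes changed, every gene had the same spread and libraries were drawn independently. That setting differs from these data, so it does not show how the tests perform here. Distances between libraries are chi-square values of recovered reads averaged over genes with 50 or more in the pair. Exon lengths came from GENCODE v29 and promoters from RefSeq (GRCh38.p14), both another build than the authors'.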

Additional observations from a re-analysis of the deposited data

Results flagged for a closer look

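The guide effect of 30 members differed between the 3 lines by limma's F test at an adjusted p under 0.05 (51.7% of the members, where 43.7% of all genes passed), and each is given by the range of its 3 line effects on the log2 scale. The effect was lowest in HPB-ALL for 22 of them, a split that was not counted over all genes. The widest ranges in that group were 0.53 for KIF14, 0.45 for MAD2L1, 0.43 for ESPL1, 0.41 for KIF23 and 0.41 for HMMR. Intermediate ranges were 0.39 for KIF20A, 0.34 for TOP2A, 0.34 for BUB1B, 0.33 for KIF11, 0.32 for BUB3 and 0.32 for CDK1. Narrower ranges were 0.29 for PLK1, 0.28 for SMC2, 0.28 for ANLN, 0.26 for KIF15, 0.25 for ECT2, 0.22 for CCNA2, 0.22 for SGOL1, 0.21 for SMC4, 0.21 for NUSAP1, 0.18 for NCAPG and 0.17 for NDC80. The effect was lowest in CUTLL1 for 4, with ranges of 0.30 for BUB1, 0.30 for CDC20, 0.28 for TTK and 0.18 for NCAPH. It was lowest in KOPTK1 for the remaining 4, with ranges of 0.28 for AURKB, 0.23 for PTTG1, 0.20 for INCENP and 0.14 for PRC1. CUTLL1 and KOPTK1 have 1 guide control each, assumed to vary like the other groups.

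The joint guide and ASO effect differed between KOPTK1 and CUTLL1 for 15 members by the test of that difference. It was higher in KOPTK1 for CDC20 (0.30), BUB1 (0.29), CDK1 (0.25), TTK (0.25), MAD2L1 (0.23), KIF23 (0.19), NCAPH (0.18), BUB3 (0.15), SMC4 (0.15) and NCAPG (0.13), on the log2 scale. It was lower in KOPTK1 for ESPL1 (-0.28), KIF14 (-0.22), NDC80 (-0.18), PRC1 (-0.11) and NCAPD2 (-0.10). The members' shares were 17.2% higher and 8.62% lower, where 13.8% and 13.7% of all genes were in the same test. A difference between these lines is thus not particular to the members.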

How the results depend on the processing

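Taking each member under each alternative as 1 result, direction and call stayed in 498 results under other settings and 879 with a library left out in the joint comparison, in 506 and 532 with guides, and in 511 and 325 with ASOs. A call was lost in 20 and 42, 13 and 38, and 5 and 7, in that order. The limits are these: most controls are single libraries, every member is tested at high counts (1360 or more), small differences are called, and few members are called lower. With a minimum of 0.5 log2, added after the data were seen, 14 members were higher and 0 lower with guides, 15 and 0 with ASOs, and 14 and 0 jointly. The joint 6 lower became 2 with no filter and 3 by edgeR. CUTLL1 guides had 2 members lower with a pseudocount of 5, a mean of 100 or more or robust moderation, and 3 with quantile scaling; the cause was not tested. For guides minus ASOs over all genes, 848 were higher and 653 lower with no filter, 1 higher with a pseudocount of 5 or quantile scaling, and up to 3 higher and 1 lower without a library.

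Leaving out each library in turn gave 43 to 47 higher and 3 to 7 lower jointly, 37 to 42 and 3 to 5 with guides, and 41 to 44 and 2 to 3 with ASOs. The guide count of 5 lower came without the CUTLL1 or the KOPTK1 guide control. CUTLL1 guides gave 40 to 42 and 1 to 2, CUTLL1 ASOs 38 to 42 and 1 to 2, KOPTK1 guides 41 to 46 and 3 to 4, KOPTK1 ASOs 42 to 44 and 2 to 3, and HPB-ALL 36 to 38 and 9 to 12. The 2 lower in CUTLL1 came without CUTLL1 guide 1 (guides only) or either KOPTK1 guide library. The F test over lines gave 22 to 31 members, control levels 50 to 54, and KOPTK1 minus CUTLL1 8 to 11 and 3 to 5.

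Same-numbered libraries deviated together little or not at all (correlations of -0.01 to 0.07 across genes, 0.01 to 0.07 among the guide groups). Between guide 2 and guide 1, 15.99% of genes and 22 of 58 members had an unadjusted limma p under 0.05. Whether the numbers mark a shared difference is thus not settled. With the replicate number as a block, 41 members were higher and 3 lower with guides, 42 and 1 with ASOs, and 43 and 5 jointly, where the calls lost were those of CCNA2, KIF15, CENPK and PLK1 (adjusted p 0.0553 to 0.0845).

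Signs turned only for members not called. With ASOs, quantile scaling gave -0.028 for CCNA2, -0.024 for PLK1 and -0.011 for BUB1B, and BUB3 read 0.014 with the replicate block, 0.0082 by edgeR and 0.017 by DESeq2. Jointly, KIF14 read -0.016 with quantile scaling and -0.019 with the block. Leaving out each library in turn, KIF14 ran from -0.14 to 0.033 and KIF23 from -0.043 to 0.091 with guides, and KIF14 from -0.046 to 0.049 jointly. With ASOs the ranges were -0.0067 to 0.062 for BUB1B, -0.071 to 0.066 for BUB3, -0.020 to 0.13 for CENPK, -0.017 to 0.16 for KIF14, -0.16 to 0.028 for NDC80, -0.062 to 0.094 for PLK1, -0.057 to 0.029 for PRC1 and -0.048 to 0.014 for SMC2.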
